A study of Drosophila melanogaster with 8 samples.

Results

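The regions described here were listed as carrying more H3K9me2 in NelfA*/+ fly heads, and lay beside chromatin with the mark in both genotypes, without overlapping it. They are 2267 of the 9363 regions listed as higher in NelfA*/+, and were chosen on measured regions by a fixed rule: no overlap with a common region by 1 bp or more, and a common region on the same sequence with a gap of 1000 bp or less. In all, 31871 regions were listed, of which 29.4% were in the list higher in NelfA*/+. Since that call chose the flanking regions, the share is background only. Of the rest of that list, 5550 regions overlapped a common region, and 1546 were isolated, meaning that no common region lay within 1000 bp. The same gap rule picked 591 of the 1796 regions higher in control siblings, called control-higher flanking regions below.

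The study asked how a lower dose of NELF-A bears on heterochromatin in aged flies. H3K9me2 ChIP-seq was done on heads of male Day 50 adults in 2 genotypes: NelfA*/+ flies (+/+; +/NELF-A*), which are heterozygous for the Nelf-A KG09483 transposon insertion, and their control siblings (+/+; +/+). Both came from the same backcross to w1118, so the control siblings carry that background too. Each genotype had 2 H3K9me2 ChIP libraries (antibody ab1220) and 2 input libraries, from 100 pooled heads per biological replicate, and a head holds neurons, glia, fat body, muscle and cuticle, whose shares cannot be told apart in these data.

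H3K9me2, dimethylated lysine 9 of histone H3, marks silent chromatin. In flies it is densest in the gene-poor, repeat-rich DNA around the centromeres, on the Y chromosome and on chromosome 4, where HP1 proteins bind methylated H3K9 and recruit further methylation, so that the mark can extend along the fibre from where it is first laid down. NELF is the complex that holds RNA polymerase II paused shortly after initiation, and NELF-A is one of its subunits. The authors' lists give each region a position and a score on a scale that is not named, and no value per library. No spread between replicates and no depth could be given, and the values below are descriptions without a test.

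The sequences below are examples, and most are extremes that do not stand for the flanking regions as a whole. All but the last come from regions with scores above 20 near the centromeric end of an arm. Only 7 of the 2267 flanking regions had a score of at least 20, and the median score was 2.73. The sequences were read from the RefSeq copy of BDGP6 (dm6), on the plus strand and counted from 1. The first is the region with the highest score, 64.7, within an intron of Myo81F at 3R:1564489-1564690. Capitals mark GAGAG on either strand, the letters bound by GAGA factor, here 2 overlapping copies.
Myo81F intron: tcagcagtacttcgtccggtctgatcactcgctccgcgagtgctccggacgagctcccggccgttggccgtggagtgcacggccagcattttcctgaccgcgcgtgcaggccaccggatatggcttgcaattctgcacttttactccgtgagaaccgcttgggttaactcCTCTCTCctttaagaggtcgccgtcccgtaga
The next is the region with the second highest score, 33.7, at 3R:3154398-3154610 in an intron of Pzl, shown because it is wholly repeated: the median 31-mer of it occurs 127 times in the assembly. Capitals again mark GAGAG.
Pzl intron: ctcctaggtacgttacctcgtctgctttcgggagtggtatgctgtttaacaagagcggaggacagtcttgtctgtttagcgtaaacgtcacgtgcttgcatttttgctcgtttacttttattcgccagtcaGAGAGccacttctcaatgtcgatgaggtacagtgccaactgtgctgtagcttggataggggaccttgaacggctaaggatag
The region at 3R:168768-169031 (score 24.2) is made of satellite DNA. Capitals mark CCCGTACT, the core of the dodeca satellite, on either strand, with 13 copies.
dodeca satellite: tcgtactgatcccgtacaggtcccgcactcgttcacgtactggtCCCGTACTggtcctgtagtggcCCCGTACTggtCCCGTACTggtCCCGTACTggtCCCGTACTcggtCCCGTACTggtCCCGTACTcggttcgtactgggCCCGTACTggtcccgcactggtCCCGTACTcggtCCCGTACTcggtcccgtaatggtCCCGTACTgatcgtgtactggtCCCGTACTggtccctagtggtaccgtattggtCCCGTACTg
The region at 3L:26674506-26674721 (score 29.0) is intergenic and abuts its common neighbour with no base between them. Capitals mark the last 30 bases of that common region, so the step to lower case is the border, at 3L:26674476-26674721 in all.
abutting pair: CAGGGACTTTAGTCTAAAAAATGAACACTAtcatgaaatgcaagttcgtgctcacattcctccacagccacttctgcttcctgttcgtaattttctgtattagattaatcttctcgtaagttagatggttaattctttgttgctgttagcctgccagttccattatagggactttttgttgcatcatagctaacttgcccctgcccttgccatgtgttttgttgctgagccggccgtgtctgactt
The last is a gap close to typical in its base composition, at 3L:22470994-22471259 near CG11426. It shows the last 60 bases of the flanking region, the 146 bp gap in capitals and the first 60 bases of the common region.
gap beside CG11426: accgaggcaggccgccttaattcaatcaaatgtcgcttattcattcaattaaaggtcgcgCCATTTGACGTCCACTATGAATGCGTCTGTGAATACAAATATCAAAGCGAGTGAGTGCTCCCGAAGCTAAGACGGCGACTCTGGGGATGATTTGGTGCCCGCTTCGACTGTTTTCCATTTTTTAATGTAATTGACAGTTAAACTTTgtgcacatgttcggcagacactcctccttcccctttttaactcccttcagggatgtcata
As to motifs, GAGAG was found in the central 200 bp of 26.5% of flanking regions, against 28.6% of overlapping, 22.4% of isolated, 21.7% of control-higher flanking and 26.5% of common regions, counting either strand. CCCGTACT, searched after these sequences had been seen, was in 69 flanking regions (3.04%), in 2.04% of overlapping, 9.44% of isolated and 0.763% of common regions, and in 0 of the 1796 regions higher in control siblings. The simple satellites AATAT and AAGAG, as 2 tandem copies on either strand, were in 3 and 2 flanking regions.

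The flanking regions were small. Their median length was 279 bp, against 381 bp for common regions, and 838 of them were under 250 bp, close to the 200 bp minimum of the lists. Only 42 reached 1000 bp. In all they covered 795 kb. The median score was 2.73, against 2.09 for overlapping, 2.84 for isolated and 2.27 for control-higher flanking regions. A score of at least 3 was reached by 922 flanking regions (40.7%), a score of at least 10 by 19 and a score of at least 20 by 7. Since the list itself was made on this score, with no differential region below 1.06 and no common region above 0.933, these values describe the members and support nothing.

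The gap to the nearest common region had a peak at 0. In 562 flanking regions (24.8%) no base lay between the end of the region and the start of the common one. A further 196 had gaps of 1 to 100 bp, 936 of 101 to 500 bp and 573 of 501 to 1000 bp, with a median of 258 bp over all. Past 0 there were 5.6 regions per bp of gap at 1 to 10 bp and 1.56 at 11 to 100 bp, then a broad second peak with 2.88 at 201 to 300 bp, and 0.85 at 901 to 1000 bp. Control-higher flanking regions also had most at 0 (113, or 19.1%), while gaps of 1 to 100 bp were found in 8.65% of NelfA-higher flanking regions, against 17.6% (104) of control-higher ones. The control-higher ones had 0.956 per bp at 11 to 100 bp, 0.70 at 101 to 200 bp, 0.83 at 201 to 300 bp and 0.64 at 301 to 400 bp, a smaller rise that stayed under the value at 11 to 100 bp. Near the limit of the rule, the last 4 regions inside it had gaps of 995 to 997 bp and scores of 1.96 to 4.14, and the first 4 outside it had gaps of 1001 and 1002 bp and scores of 1.63 to 9.62.

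**Figure D1:**
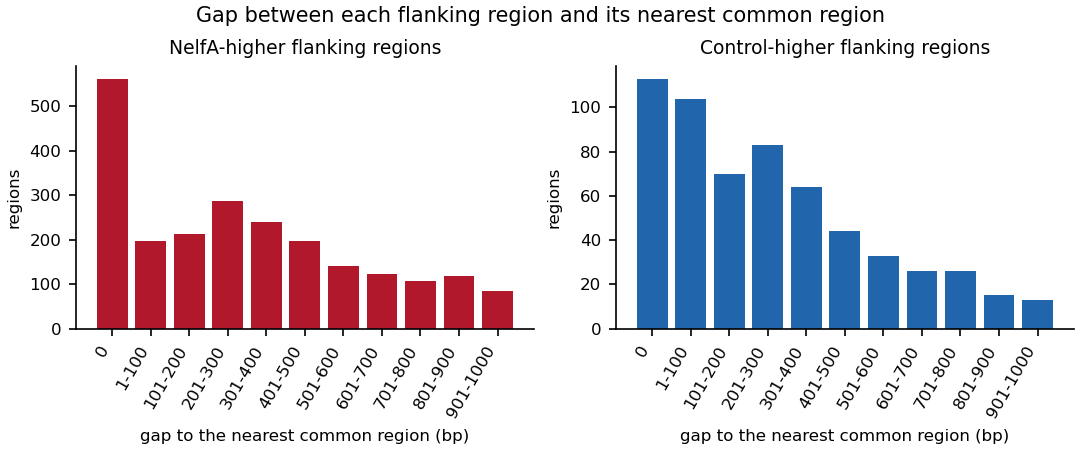
Number of regions (vertical axes, scaled separately) by the gap to the nearest common region in bp (horizontal axes), for NelfA-higher flanking regions on the left and control-higher flanking regions on the right. Both have their tallest bar at a gap of 0 bp (562 and 113 regions) and fall off towards 1000 bp. At 201 to 300 bp there are 288 and 83 regions and at 1 to 100 bp 196 and 104, so the later bar is the taller one only on the left.

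Regions that abutted a common region differed in several ways from those farther off. Their median score was 3.06, against 2.59 at gaps of 1 to 100 bp and 2.63 at 101 to 1000 bp. Their median GC content was 51.9%, against 45.9% and 50.0%. Of the abutting regions on the arms, 61.7% lay within 5 Mb of the centromeric end, against 54.5% and 45.4%. The common regions they touched had a median length of 410.5 bp, and a region joined to its common neighbour had a median length of 761 bp.

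In many cases the flanking region sat between common regions. A common neighbour lay within 1000 bp on both sides of 854 flanking regions (37.7%), and the median distance between those neighbours was 941.5 bp. Both gaps were 0 in 62 of them, so that listed regions followed each other without a break from one common region to the next. Another 284 abutted on one side with a gap of 1 to 1000 bp on the other. The lists hold no signal along the sequence, so the course of the mark itself in either genotype is not shown. These bridging regions were more often pericentromeric: 68.2% of those on the arms lay within 5 Mb of the centromeric end, against 38.8% of those with a common neighbour on a single side. Common regions are themselves denser there. Both bridging regions with the highest scores and gaps of 100 bp or less lay in dodeca satellite: 3R:294994-295323 (330 bp, score 9.36) and 3R:167092-168041 (950 bp, score 6.61), each with gaps of 0.

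Where only a single side had a common neighbour, the direction showed no lean. The common region was on the centromeric side of 589 flanking regions and on the telomeric side of 575 (50.6% centromeric). The share was 52.7% within 5 Mb of the centromeric end and 49.3% beyond it, and between 48.7% and 53.1% on each of 2L, 2R, 3L, 3R and X. Control-higher flanking regions were split as evenly, with 100 on the centromeric side and 96 on the telomeric side.

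In base composition a flanking region was close to its neighbour, as far as medians go. The median GC content was 50.1% in flanking regions and 49.4% in the common regions nearest to them, while the other common regions had 45.8%. Member by member, the flanking region was 0.362 percentage points higher in GC content (quartiles -3.28 and 4.13), and 1428 of 2267 pairs (63.0%) lay within 5 points of each other and the rest did not. How far this goes beyond the composition of the wider neighbourhood was not tested. Across the 2267 pairs, which share chromosome neighbourhoods and partly share neighbours, Pearson's r was 0.682, as a description. In flanking regions of wholly unique sequence the difference had the other sign, -0.141 points. The 2267 flanking regions had 2140 different nearest common regions, or 10.3% of all common regions, and 135 common regions had a flanking region on both sides. Of the nearest neighbours, 25.2% also overlapped another region higher in NelfA*/+, against 29.3% of the other common regions.

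The bases in the gap differed from both. Over the 1568 flanking regions with a gap of at least 50 bp, the median GC content was 49.7% in the region, 42.0% in the gap and 49.6% in the common region. The gap was lower than its flanking region in 1259 cases (80.3%), by a median of -5.53 points, and lower than both sides in 1102 (70.3%). The 200 bp on the far side of the region, where no common region lay within 1000 bp, had 43.0% (1084 cases), close to the gap. Regions higher in either genotype could lie in that far window. On the arms beyond 5 Mb the step was larger, with a median of -7.89 points and a lower gap in 87.1% of 714 cases, against -4.57 points and 75.3% of 611 cases within 5 Mb. In the gap printed above, GC content was 48.0% in the flanking region, 43.2% in the gap and 52.9% in the common region. The step is no special feature of these regions. Gaps between neighbouring common regions that held no other listed region were lower than the mean of both flanks in 82.7% of 7743 cases. The median difference was -5.81 points. Gaps beside flanking regions that held no other listed region were lower than the flanking region alone in 81.25% of 1328 cases. There the median difference was -6.00 points. Base composition can also shape how well fragments are amplified and sequenced, and its part in where regions begin and end was not tested.

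**Figure D2:**
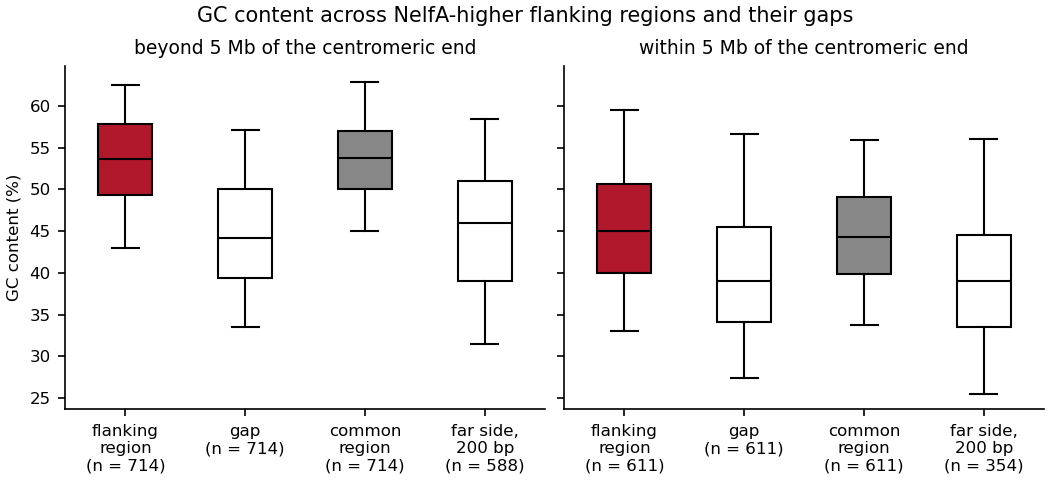
GC content in percent of the flanking region, the gap, its common neighbour and the 200 bp on the far side, for gaps of at least 50 bp, beyond 5 Mb of the centromeric end on the left and within 5 Mb on the right. Boxes span the quartiles with the median as a line, and whiskers reach the 5th and 95th percentiles over regions; the gap and the far side lie below the flanking and common regions in both panels.

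Flanking regions were concentrated towards the centromeres. On the arms 2L, 2R, 3L, 3R and X, 944 of 1885 (50.1%) lay within 5 Mb of the centromeric end, against 63.9% of overlapping, 23.1% of isolated and 72.5% of control-higher flanking regions. The density was 48.8 flanking regions per Mb in the first Mb, 43.6 in the next, 32.1 at 2 to 5 Mb, 11.5 at 5 to 10 Mb and 7.59 from there to the telomeres. Per 100 common regions there were fewer flanking regions near the centromeres than on the arms: 10.6, 8.44 and 9.37 in the first Mb, the next and at 2 to 5 Mb, against 14.9 at 5 to 10 Mb and 16.5 farther out. Averaged over whole sequences, density was highest on scaffolds, with 245 flanking regions (39.7 per Mb), and on the Y chromosome, with 125 (34.1 per Mb), but per 100 common regions these had the fewest, with 7.61 and 8.63. The short chromosome 4 held 12 (8.90 per Mb, and 11.3 per 100 common regions). X had the lowest density of the large chromosomes, with 149 (6.33 per Mb), against 18.9 per Mb on 3L. Per 100 common regions, however, X (12.1) and 3L (12.3) were close.

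**Figure D3:**
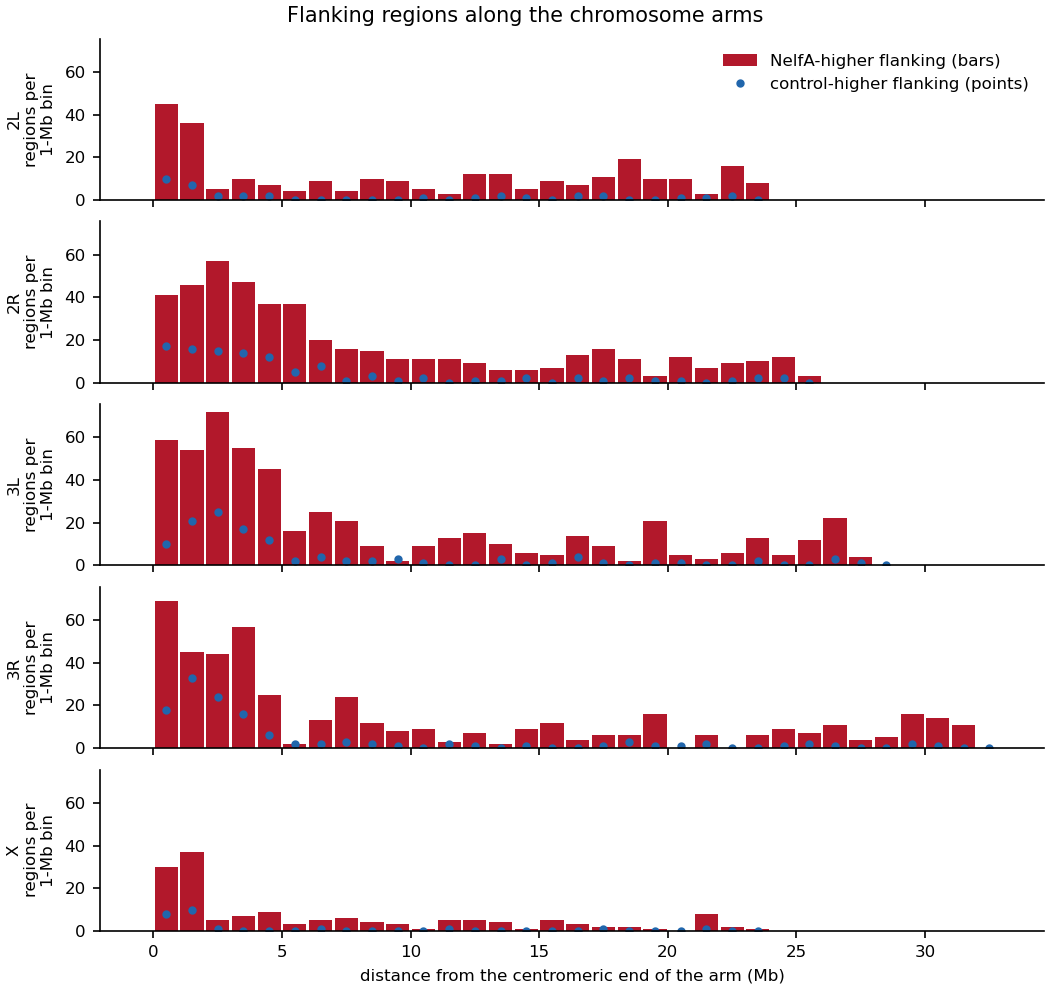
Number of regions per 1 Mb bin (vertical axes) against distance from the centromeric end of each arm in Mb (horizontal axis), with NelfA-higher flanking regions as bars and control-higher flanking regions as points, one panel per arm. Both are densest in the first few Mb, and NelfA-higher flanking regions reach along the arms, where control-higher ones are few (653 against 71 beyond 10 Mb).

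Flanking regions within and beyond 5 Mb of the centromeric end differed in annotation and sequence, as did the regions of the other lists. Common regions, for example, had a median GC content of 43.5% within 5 Mb and 52.9% beyond it, and 11.1% and 85.4% of them were of wholly unique 31-mers. The 941 beyond 5 Mb lay mostly over genes: 43.3% had their midpoint in an exon and 29.8% in a promoter, meaning within 1 kb of a transcription start, and 15.6% were intergenic. Their median GC content was 53.7%, and in 86.6% every 31-mer occurred only once in the assembly. The 944 within 5 Mb were intergenic in 55.1% and intronic in 38.3%, with 3.07% in exons and 3.50% in promoters. Their median GC content was 45.6%, their median share of unique 31-mers was 17.8%, and 29.7% of them had no unique 31-mer at all. Median scores were close, at 2.69 beyond 5 Mb and 2.76 within it. Reads from repeated sequence can be placed at more than one position, and how the mapping treated them was not tested here, so a value at a repeated position may belong to other copies.

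Within 5 Mb of the centromeric end, flanking regions were placed much like overlapping ones and unlike isolated ones. Promoters took 3.50% of flanking, 2.43% of overlapping and 13.9% of isolated regions, exons 3.07%, 2.37% and 8.28%, and introns 38.3%, 41.0% and 23.2%. Beyond 5 Mb, exons took 43.3% of flanking, 47.9% of overlapping and 34.5% of isolated regions, against 27.4% of control-higher flanking and 37.8% of common regions. Promoters took 29.8% of flanking regions, against 30.1% of control-higher flanking and 31.9% of common ones. Control-higher flanking regions stood apart by base composition, as did the whole list they came from. Beyond 5 Mb their median GC content was 45.2%, against 53.7% in the NelfA-higher flanking regions, and within 5 Mb it was 37.6%, against 45.6%. Over whole lists, the median was 38.7% in regions higher in control siblings, 50.9% in NelfA-higher regions and 46.1% in common regions.

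**Figure D4:**
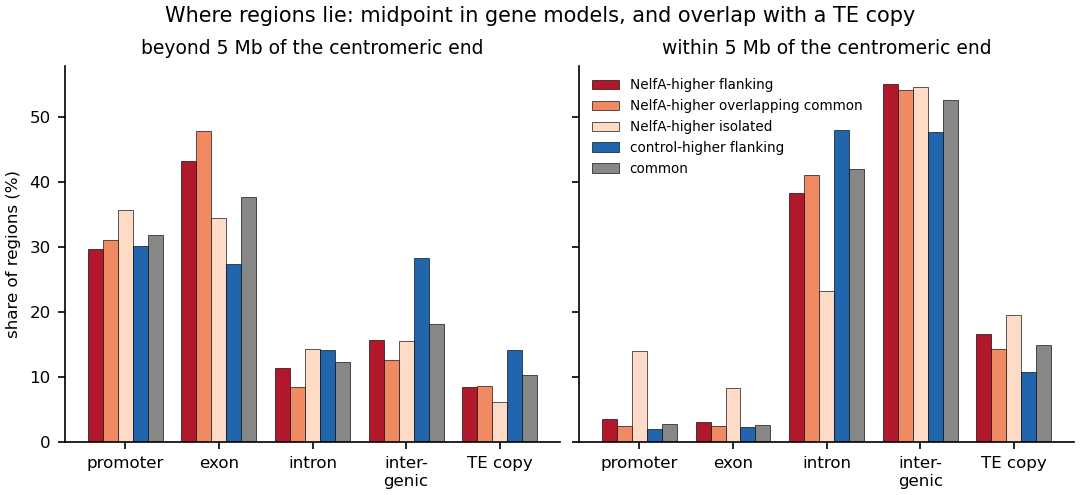
Share of regions in percent (vertical axis) with their midpoint in a promoter, exon, intron or intergenic DNA, and share overlapping a transposable element (TE) copy, for 5 groups of regions, beyond 5 Mb of the centromeric end on the left and within 5 Mb on the right. Flanking regions were exonic in 43.3% on the arms and in 3.07% near the centromeres.

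Regions higher in the other genotype were near some flanking regions. A region higher in control siblings lay within 1 kb of 135 flanking regions (5.96%), against 6.63% of all NelfA-higher regions. Seen from the shorter list, 181 of the 591 control-higher flanking regions (30.6%) had a NelfA-higher region that close, as had 29.5% of all control-higher regions. With all regions of the 3 lists joined across gaps of up to 1000 bp, 9561 stretches resulted, of which 1795 held a flanking region, and 327 of those (18.2%) also held a region higher in control siblings. Stretches with a flanking region had a median length of 2.59 kb, against 0.74 kb for those with a common region and no flanking region, a difference that the rule favours since a flanking region adds its own length. Flanking regions were at an end of their stretch in 1167 cases (51.5%) and inside it in 1100. In 1441 stretches there was 1 flanking region, and 9 stretches had 5 or more.

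On 2L, 2R, 3L, 3R, 4 and X, the stretch with the most, 7, was at 3R:50253-88867, 38.6 kb of intergenic DNA near the centromeric end of 3R. It also held 14 overlapping, 1 isolated and 21 common regions and 0 higher in control siblings. Its flanking regions had scores of 4.93 to 24.7 and a median GC content of 60.2%. The second, X:23399767-23433523, had 6 with scores of 2.13 to 7.01, and the third, 3R:129194-144482, had 6 with scores of 2.21 to 7.31. None of the 3 overlapped an annotated gene, and their flanking regions overlapped no annotated TE copy. Of the 69 flanking regions with the dodeca core, 32 lay on 3R:1-350000, where 38 flanking regions had a median score of 4.95, against 2.72 in the other 2229, and a median length of 458.5 bp, against 278 bp. The 3 longest flanking regions of these chromosomes, scaffolds aside, were all there, at 3R:318552-326951 (8400 bp), 3R:2088-5514 (3427 bp) and 3R:289864-293173 (3310 bp), with 433, 193 and 153 copies of CCCGTACT. Dodeca is a GC-rich satellite that flies carry near the centromere of chromosome 3. Few of its 31-mers are unique (a median share of 2.41% in these 38 regions), so the positions within the satellite are uncertain.

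**Figure D5:**
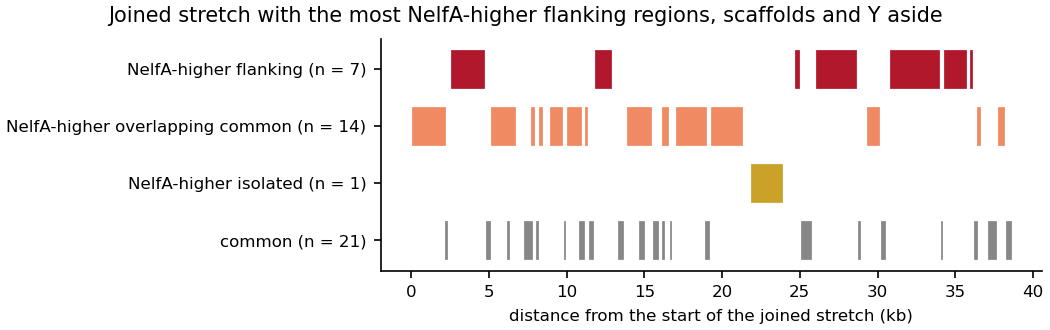
Map of the joined stretch with the most NelfA-higher flanking regions, scaffolds and Y aside, with distance from its start in kb on the horizontal axis and a row each for flanking, overlapping, isolated and common regions. Along 38.6 kb, 2 of the 7 flanking regions lie in the part rich in overlapping regions and 5 lie after the isolated region, and the 21 common regions are spread among them.

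Of the flanking regions, 1235 (54.5%) lay over the body of a gene, and 782 genes had at least 1. The genes with the most were very long genes embedded in pericentromeric heterochromatin. Myo81F, which encodes an unconventional myosin, had 92 flanking regions over 1966 kb, 1 of them touching an exon, next to 1408 common and 184 control-higher regions. Their scores had a median of 2.82 and reached 64.7. Pzl (Piezo-like, a relative of mechanosensitive Piezo channels) had 34 with a median score of 3.27. lovit, which encodes a transporter that loads histamine into photoreceptor synaptic vesicles, had 37, or 8.52 per 100 kb of gene, against 4.68 per 100 kb in Myo81F. CG17684 had 30. DIP-lambda, an immunoglobulin-family cell surface protein that pairs with Dpr proteins, had 23. Snap25, a SNARE protein of synaptic vesicle fusion, had 13, with a highest score of 10.1. Dbp80, a DEAD-box RNA helicase, had 11. In Dbp80, 1 touched an exon, and in lovit, Pzl, CG17684, DIP-lambda and Snap25 none did.

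The exception among the 8 genes with the most was dpy (dumpy), which encodes a giant extracellular matrix protein that anchors cuticle to epidermis. It lies 19.0 Mb from the centromeric end of 2L, and 11 of its 12 flanking regions touched an exon. Their scores ran from 1.69 to 4.40, the median GC content was 51.8%, and dpy also held 45 overlapping and 70 common regions, with 0 higher in control siblings. Beyond 5 Mb, 16 genes had 4 or more flanking regions, dpy included. In 3 of them every flanking region touched an exon, in 9 some did and in 4 none did. The genes named next were chosen after their values were seen. The giant muscle protein genes sls (the fly titin) and zormin had 5 each, of which 3 and 4 touched an exon. RyR, the calcium release channel of the sarcoplasmic reticulum, Strn-Mlck, a muscle protein kinase, and trol, the fly perlecan, had 4 each, all touching an exon. In Ptp61F and ds, with 7 each, and in pk and CG43367, with 4 each, none did. A whole head holds muscle and epidermis as well as neurons, and which cells carried the mark was not measured.

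Of 21 classical heterochromatin genes, taken as a list known for depending on or residing in heterochromatin, 16 had a flanking region within 5 kb, against 2222 of all 18358 annotated genes (12.1%) and 15.7% of genes within 5 Mb of the centromeric end of an arm. Length matters here, since 42.9% of the 105 genes of 20 kb or longer in that part had one. Some listed genes are far longer than 20 kb, such as Myo81F with 1966 kb, so this share is no matched background. The list was also chosen with earlier results of these data known. It holds Myo81F, Pzl, DIP-lambda, Snap25 and Dbp80, named above among the genes with the most flanking regions. The 16 of 21 therefore describe this list only, and enrichment was not tested. Besides these genes, the 16 included AGO3 (9), the piRNA-pathway Argonaute, whose flanking regions overlapped TE copies in 7 cases. Parp1 (poly(ADP-ribose) polymerase) had 6, with a highest score of 5.78, and nvd, which acts early in ecdysone synthesis, had 6. Nipped-A, a transcriptional coactivator, had 4, and Haspin, a histone H3 kinase, had 2. lt, rl (a MAP kinase), RpL15, spok, vtd (the cohesin subunit Rad21) and scro had 1 each. The other 5, cta, Nipped-B, RpL5, RpL38 and uex, had none, although 3 of these (Nipped-B, RpL5 and uex) had a common region that close. On the Y chromosome, 7 of 12 fertility and other Y-linked genes had one, against 53 of all 113 genes on Y (46.9%). Of the 7 genes of 20 kb or longer on Y, 5 (71.4%) had one, but all 7 belong to this list. They therefore give no separate background for length. kl-3 had 11 and kl-5 had 7 (both axonemal dynein heavy chains), Ppr-Y had 7, WDY had 5, and ORY, CCY and FDY had 1 each.

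For genes of the pathways the study is about, the background is the 12.1% of all annotated genes with a flanking region within 5 kb, and counts this small are not set apart from it. None of the 11 genes for H3K9 methyltransferases, their cofactor wde, HP1 proteins, the HP1-binding Su(var)3-7 and Su(var)2-HP2, and H3K9 demethylases had a flanking region within 5 kb, nor any NelfA-higher or common region. None of the 10 NELF and pausing genes had one, Nelf-A included, nor did any of 14 heat-shock genes or of 6 genes of small-RNA silencing. Other listed regions did lie within 5 kb of some of these. Hsp70Bb and Hsp70Bc had 4 NelfA-higher regions each. These 2 genes lie within 1 kb of each other, so the same regions can be counted for both. Nelf-E had 1 NelfA-higher and 4 common regions, and Dcr-2 and rhi had 1 NelfA-higher region each. Among 4 genes of S-adenosylmethionine metabolism, 2 had one. Sardh, which encodes sarcosine dehydrogenase, had 1 over its body and another within 5 kb, with a highest score of 5.06. Gnmt, the glycine N-methyltransferase that consumes S-adenosylmethionine, had its nearest flanking region 4.16 kb away, with a score of 2.88, in a neighbourhood with 3 NelfA-higher and 5 common regions within 5 kb.

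Transposable elements are a main target of H3K9 methylation in flies. A TE copy was overlapped by 250 flanking regions (11.0%), against 10.4% of overlapping, 8.09% of isolated, 8.97% of control-higher flanking and 10.8% of common regions. These shares hold for the Ensembl copies only, which are few on scaffolds, where 1.22% of flanking regions overlapped one, and another TE annotation can give other shares. Soft-masked DNA near the centromeres can lack a copy too: the Pzl region printed above was 100% soft-masked and overlapped none. The shares, and the family counts below, can therefore miss repeats in such DNA. At least 50% of the length was soft-masked in 21.8% of all flanking regions. Of these 250, 208 lay wholly inside TE sequence. In 217 (86.8%) the same TE copy also carried a common region, and in 202 (80.8%) it carried the nearest one. The rule favours such sharing, since it asks for a common region within 1000 bp. No such share is given for other groups of regions. The 269 copies touched had a median length of 4643 bp, against 374 bp for all 5896 annotated copies. Touched copies tended to be long, though short ones were touched too. Longer copies offer more bases to overlap, and this median is not given for other groups of regions.

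Over all families, 4.56% of copies were touched by a flanking region, or 6.94% without INE-1. By family, INE-1, the most numerous fly element and a short one, had 15 of 2235 copies touched (0.671%). The non-LTR retrotransposons Rt1b (12 of 60, 20%), Rt1a (9 of 30, 30%), Cr1a (11 of 152, 7.24%) and F (10 of 86, 11.6%) followed, with the DNA transposon 1360 (11 of 493, 2.23%). Among LTR retrotransposons, gypsy8 had 10 of 56 copies touched (17.9%), invader2 had 7 of 24 (29.2%) and roo had 7 of 144 (4.86%). All families whose name begins with gypsy had 30 of 230 (13.0%), and those beginning with diver had 3 of 62 (4.84%). Common regions, a list of 20712, touched more copies in the same families, for example 40 of 60 in Rt1b, 112 of 230 in the gypsy group and 32 of 62 in the diver group. Members of a family share sequence, so copies of a family are not independent of each other. The flamenco locus (lncRNA:flam), a piRNA cluster on X that silences gypsy-type elements in the ovary, held 9 flanking regions, 6 of them in TE copies, beside 67 common regions.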

How the data were processed

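Heads of NelfA*/+ flies and control siblings (2 H3K9me2 ChIP and 2 input libraries each, 8 libraries in all) were processed by the authors, who mapped reads to BDGP6 with STAR 2.5 end to end, called broad peaks with MACS2 2.1.1 (200 bp extension) and derived 3 lists with bdgdiff (largest gap 100 bp, smallest length 200 bp). The command uses no variance between replicates, and whether libraries were pooled is not given in the sources used here. The deposited score is 1 number per region of unnamed scale. The files number the lists and do not name a genotype, so a list's region count was matched to the count that the study gives for each class. Depth is unknown.

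Gaps, GC content, soft-masking, 31-mer counts (both strands, whole assembly; 31 is not the read length) and motifs were computed from these positions in Python 3.11.15 (scipy 1.17.1, pandas 2.3.3, numpy 2.4.6, figures with matplotlib 3.10.9), and interval code was tested on simulated data. Genes and TE copies came from Ensembl release 115, midpoints being assigned as promoter, exon, intron or intergenic in that order. All 1490 sequence names matched the assembly. The pericentromeric limit was 5 Mb.

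Members and lists were chosen with earlier results of these data known. Named by rule, on 2L, 2R, 3L, 3R, 4 and X, were the 5 regions with the highest score, the 3 longest, the 2 highest-scoring bridging ones among those with gaps of 100 bp or less on both sides, the 3 richest joined stretches, the 8 genes with the most flanking regions, list genes within 5 kb, and the 8 TE families with the most copies touched (with a tie, both) plus gypsy, diver and INE-1. No test was run: the lists hold no values per library. Input libraries were not analysed here.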

Additional observations from a re-analysis of the deposited data

How the results depend on the processing

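No paired analysis was possible because the lists hold no values per library, and for the same reason leaving out each replicate could not be run. Of 58 alternatives over 13 results, 31 stayed within the 95% interval of the reported share or median, or within 1.5 times a reported count or ratio; intervals cover counting of regions only. A score of at least 3 left 922 flanking regions, with 40.3% bridging, 52.9% within 5 Mb, a median GC content of 51.9%, a difference from the common neighbour of 0.809 points, 0.759% near a control-higher region of that score, and a ratio to control-higher flanking regions of 6.78 (922 to 136), against 3.84 (2267 to 591). The whole NelfA-higher and control-higher lists held 9363 and 1796 regions, and 2620 and 277 at a score of at least 3. Both are larger ratios than those of the flanking regions. A length of at least 400 bp left 482 and a ratio of 7.09. Counting only common regions of at least 400 bp left 1304, with 24.3% bridging. A gap limit of 500 bp gave 27.5% bridging, 55.0% within 5 Mb and 91.4% of TE-bearing regions sharing their copy with a common region, and a limit of 2000 bp gave 48.8% bridging. Within 2 Mb of the centromeric end lay 24.5%. Regions without soft-masked bases had 53.0% GC. At least 50% soft-masked were 21.8%. Without Y and scaffolds, 12.8% overlapped a TE copy, 16.5% lay in promoters and 23.4% in exons. A promoter limit of 500 bp gave 7.85%. Control-higher regions lay within 500 bp of 3.53% and within 2000 bp of 11.6%. Chosen after seeing the data, regions of wholly unique 31-mers (942) gave 27.5% bridging, 3.93% near a control-higher region and a reversed GC difference of -0.141 points, and leaving out the dodeca stretch of 3R changed neither the count (2229), the bridging share nor the GC content beyond their intervals. The causes of these shifts were not tested.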
